A study of Mus musculus with 8 samples.

Results

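The amino acid transporter families of the solute carrier (Slc) series move amino acids and related small molecules across the cell surface and the membranes of lysosomes and vesicles. Members were every row of the gene count table whose symbol belongs to Slc1a, Slc3a, Slc6a, Slc7a, Slc36a, Slc38a or Slc43a followed by a number, which gave 61 genes of 7 families among the 53921 rows that name a gene. Symbols with a further letter, such as Slc6a20a and Slc6a20b, fall outside this choice. RNA-seq counts came from mouse fibroblasts on the way to induced cardiomyocytes, a state close to heart muscle that added transcription factors bring about. Every sample is a day 5 sample labelled MGT, the usual shorthand for the reprogramming factors Mef2c, Gata4 and Tbx5. The cells labelled shGrhl3 received a lentiviral short hairpin against Grhl3, a Grainyhead-like transcription factor (2 libraries), and the cells labelled shNT received the hairpin taken here as the control (2 libraries). The labels add the word Neo to the cell name without explaining it, and do not say how many hairpin sequences were used or whether replicates were separate cultures. The p-values thus reflect the variation among 4 libraries alone, and that variation may be technical.

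Amino acid transport works through a few kinds of carrier that act together. Sodium-coupled carriers of the Slc1a, Slc6a and Slc38a families use the sodium gradient to load the cell with glutamine, alanine, serine, glutamate, taurine and other substrates. Exchangers of the Slc7a family that are bound to an Slc3a heavy chain, which brings them to the membrane, then trade some of this internal pool for leucine, cystine or arginine. Slc36a and several Slc38a proteins sit on lysosomes, where amino acids released from degraded protein leave for the cytosol and are sensed by the growth regulator mTORC1. Many of the surface carriers are known targets of ATF4, the transcription factor of the amino acid response.

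Counts totalled 19823397 and 18609743 in the shGrhl3 libraries and 19257692 and 16104243 in the shNT libraries. Grhl3 itself had 11 and 19 counts in shGrhl3 and 31 and 14 in shNT, so its libraries overlapped and a fall was not detected (adjusted p = 0.311, edgeR's quasi-likelihood test). The shGrhl3 columns of the table carry the names shGrhl1 and shGrhl2, read here as replicate 1 and 2. Grhl1 had 26 and 24 counts in them and 13 and 3 in shNT, and Grhl2 had 1 and 0 counts in them and 0 and 5 in shNT, so neither name matched a detected fall. For the marker counts that follow, 17.2% of all genes tested were called higher and 18.1% lower. Of 12 fibroblast markers, all of them tested, 2 rose (Col1a1 and Lum), 6 fell and 4 did not pass. The largest falls were in Pdgfra (log2 fold change -1.14), Tcf21 (-0.71) and Ddr2 (-0.70). Markers of leukocytes and macrophages were lower: 11 of 12 tested (of 15 listed) fell and Csf1r rose, and none of the 15 was at 0 in all libraries. Their summed level was 125 to 156 CPM (a read count scaled to library size with the trimmed mean of M-values, not corrected for gene length) in shGrhl3 and 677 to 931 CPM in shNT. Of 13 cardiomyocyte markers, all of them tested, 6 rose, Nppa fell (-0.62) and 6 did not pass. The 6 that rose were Myh6 (log2 fold change 3.61), Myh7 (2.70), Tnni3 (2.59), Mybpc3 (1.12), Actc1 (0.97) and Myl7 (0.72). The summed level of the 13 markers stood at 6011 to 6163 CPM in shGrhl3 and 4912 to 4924 CPM in shNT. Much of that sum was Tnnt2, at 3208 CPM on average in shGrhl3 and 3214 CPM in shNT. Among 10 tested endothelial markers 0 rose and 2 fell, and among 9 of smooth muscle and pericytes 3 rose and 2 fell. Among 3 tested epithelial markers 1 rose and 0 fell, and among 4 neural and glial ones 1 rose and 1 fell. These and the other marker genes named here were chosen after their values were seen. The small-subunit rRNA gene Rn18s took 0.0959% and 0.156% of counts in shGrhl3 and 0.573% and 2.00% in shNT. The part of these differences in the transporter results was not tested. In such bulk samples, fewer cells of a type and less RNA per cell cannot be told apart.

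Of the 61 transporter genes, 36 had enough counts to test. In shGrhl3 cells 8 of them were higher, 9 were lower and 19 did not pass an adjusted p of 0.05. Without shNT replicate 2 fewer members were called, with most of the loss among the lower ones, and fewer of all genes were called too. The 17 called genes make 47.2% of those tested, where 35.3% of all 15324 genes tested were called, 17.2% as higher and 18.1% as lower. The median log2 fold change of the tested members was 0.07, and -0.01 over all genes tested. The genes that rose were Slc7a5, Slc7a8, Slc7a3, Slc7a2, Slc3a2, Slc1a5, Slc1a4 and Slc38a1. The genes that fell were Slc38a2, Slc38a5, Slc38a6, Slc38a7, Slc38a10, Slc36a4, Slc6a17, Slc6a12 and Slc3a1. In 26 of the 36 tested members both shGrhl3 libraries lay on one side of both shNT libraries, which was so for 66.5% of all genes tested. The summed level of all members was 2582 and 2717 CPM in shGrhl3 and 2651 and 2690 CPM in shNT, so the groups overlapped.

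**Figure D1:**
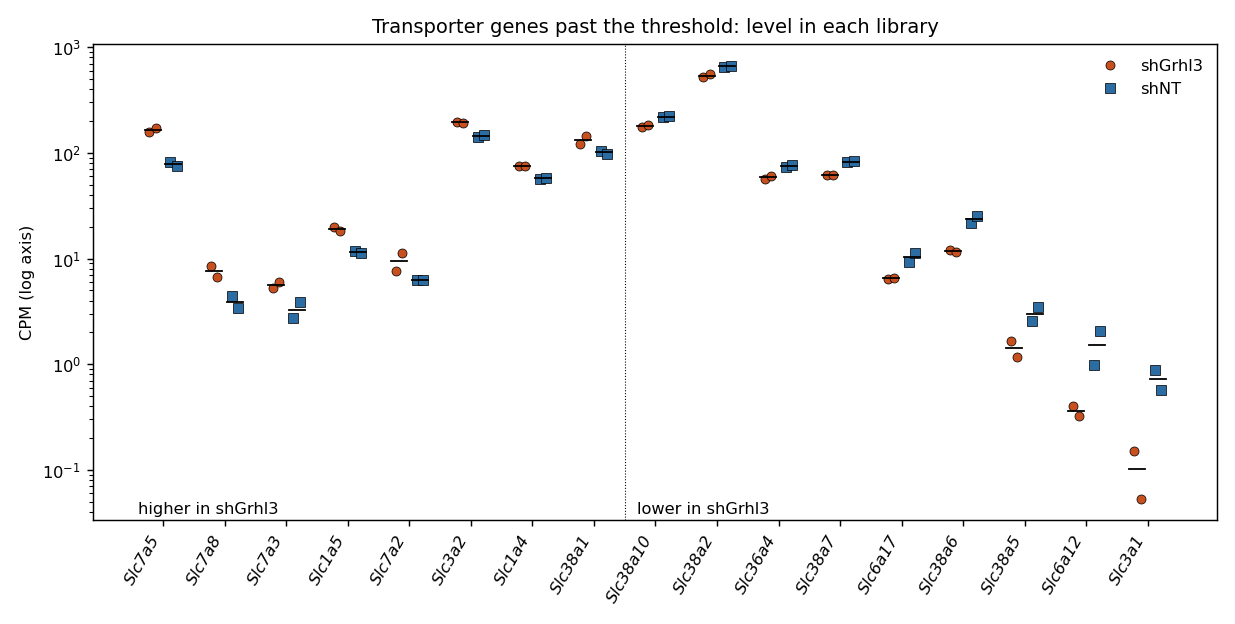
CPM on a log axis for the 17 transporter genes past the adjusted p of 0.05, with circles for the 2 shGrhl3 libraries, squares for the 2 shNT libraries and a line at each mean. Genes run from the highest to the lowest log2 fold change, and in each of the 17 genes both shGrhl3 libraries lie on the same side of both shNT libraries.

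Of 9 members known as ATF4 targets, 5 rose, 1 fell and 3 did not pass, beside the 17.2% and 18.1% of all genes called in each direction. The risers were Slc7a5, Slc3a2, Slc1a4, Slc1a5 and Slc7a3, and the gene that fell was Slc38a2. The call of Slc38a2 was lost without shNT replicate 2. That of Slc7a3 was lost with DESeq2, without shGrhl3 replicate 2 and without shNT replicate 1. Slc7a1, Slc7a11 and Slc6a9 did not pass. Atf4 mRNA itself was named after its values were seen. It stood at 238 ± 18.1 CPM in shGrhl3 and 210.1 ± 9.06 CPM in shNT (SD, n = 2 each). Its log2 fold change of 0.18 did not pass (adjusted p = 0.101, edgeR). ATF4 is known to be controlled mainly at translation, which was not measured, and its part in these changes was not tested.

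Promoter sequence was read for the members to show where the letters of the C/EBP-ATF response element, the site read by ATF4, lie in genes with different responses. RefSeq promoters of GRCm38.p6, the assembly behind mm10, cover 250 bases before to 50 bases from the start site and were found for 43 of the 61 members, 3 of the 8 that rose and all 9 that fell. The motif TGATGNAAN, on either strand, was present for 4 of the 43 members, and for 4.5% of all 27025 genes with such a promoter. The 4 were Slc1a4, Slc7a7, Slc7a11 and the untested Slc6a21. Some genes have more than 1 such promoter: the motif was in 5 of 64 member promoters and in 3.95% of all 32851. The promoters of Slc1a4, which rose, and Slc7a11, which did not pass, are shown from 200 bases before the start site with the motif in capitals. That of Slc38a7, which fell, is shown for 2 other motifs in capitals: AACNGGTT, a core site of Grainyhead-like factors, and CACGTG, the E-box read by Myc and the lysosomal regulators of the MiT/TFE family.
Slc1a4: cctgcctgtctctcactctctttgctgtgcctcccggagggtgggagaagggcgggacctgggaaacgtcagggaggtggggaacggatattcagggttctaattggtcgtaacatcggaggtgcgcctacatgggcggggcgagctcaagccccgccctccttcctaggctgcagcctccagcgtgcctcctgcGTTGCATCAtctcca
Slc7a11: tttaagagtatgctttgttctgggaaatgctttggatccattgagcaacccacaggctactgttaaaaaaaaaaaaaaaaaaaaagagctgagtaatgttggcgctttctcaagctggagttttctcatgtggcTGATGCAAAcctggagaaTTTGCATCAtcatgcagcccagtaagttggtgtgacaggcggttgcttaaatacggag
Slc38a7: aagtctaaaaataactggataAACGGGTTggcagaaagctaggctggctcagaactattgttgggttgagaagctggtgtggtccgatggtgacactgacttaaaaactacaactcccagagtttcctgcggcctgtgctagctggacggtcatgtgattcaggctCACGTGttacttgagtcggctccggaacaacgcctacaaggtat
All 3 lie on the minus strand, Slc1a4 at chr11:20332704-20332913, Slc7a11 at chr3:50443604-50443813 and Slc38a7 at chr8:95853482-95853691. The motif of Slc1a4 spans its start site, while Slc7a11 has one copy on each strand shortly before its start site.

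The Grainyhead-like motif AACNGGTT was found for 2 of the 43 members, Slc38a7 and the untested Slc38a11, and for 2.35% of all genes. The E-box CACGTG was found for 9 of the 43 members, among them Slc38a5 and Slc38a7 of those that fell, and for 8.09% of all genes. The antioxidant response element core TGACNNNGC was found for 9 of the 43, among them Slc38a2, and for 14.0% of all genes. Counted by promoter, the Grainyhead-like motif was in 2 of 64 member promoters and 2.09% of all promoters. The E-box was in 9 of 64 and 7.15%, and the antioxidant core in 11 of 64 and 12.4%. A match is a description of letters, not a bound site, and the window does not cover introns, where some known ATF4 sites of these genes lie.

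Both heavy chains changed, in opposite directions, where 35.3% of all genes tested were called. Slc3a2 (chromosome 19, 8706882 to 8723369, mm10) encodes the heavy chain 4F2hc, also known as CD98, which carries most of the widely expressed light chains to the membrane. It had 195 and 194 CPM in shGrhl3 and 140.1 and 148 CPM in shNT. Both shGrhl3 libraries were above both shNT libraries, and the log2 fold change was 0.43 (SE 0.08, adjusted p = 0.000303, edgeR), a 1.35-fold rise. Slc3a1 encodes rBAT, the heavy chain of the cystine carrier of kidney and gut, whose light chain Slc7a9 was at 0 in every library. Slc3a1 had 3 and 1 counts in shGrhl3 and 17 and 9 in shNT, so its log2 fold change of -2.77 (95% interval -4.67 to -0.87, adjusted p = 0.0216, edgeR) rests on very few reads. The call was lost with DESeq2 (adjusted p = 0.0734) and without shGrhl3 replicate 2 (log2 fold change -2.24, adjusted p = 0.0972), and the gene was too low to test with a minimum count of 50 or without shNT replicate 1. Its gene span overlaps that of Prepl, with 751 and 750 counts in shGrhl3 and 787 and 585 in shNT, and no source used here says whether the counting kept strands apart.

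Among the light chains, the leucine exchanger led. Slc7a5 (chromosome 8, 121881146 to 121907686) encodes LAT1, which brings leucine and other large neutral amino acids in against internal glutamine. It had 158 and 174 CPM in shGrhl3 and 82.6 and 74.4 CPM in shNT. The 2 groups were far apart beside their own spread, with a log2 fold change of 1.08 (95% interval 0.89 to 1.27, adjusted p = 3.49e-09, edgeR), or 2.11-fold. That interval lies wholly above the 0.26 to 0.60 of its partner Slc3a2.

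Slc7a8 (chromosome 14, 54722215 to 54781886), which encodes the related neutral exchanger LAT2, moved the same way at a much lower count. It had 8.48 and 6.74 CPM in shGrhl3 and 4.39 and 3.40 CPM in shNT, again without overlap. The log2 fold change was 0.96 (SE 0.24, adjusted p = 0.00278, edgeR). Slc7a7, which lies 302147 bases away, the y+LAT1 light chain that exports arginine and lysine and is known from macrophages, stood at 10.6 ± 1.44 CPM in shGrhl3 and 7.61 ± 0.251 CPM in shNT (SD, n = 2 each). That difference narrowly missed the threshold (log2 fold change 0.47, SE 0.19, adjusted p = 0.0513, edgeR). It passed with library-size scaling (adjusted p = 0.0389), DESeq2 size factors (0.0478), the stricter filter (0.0469), ribosomal RNA rows left out (0.0464) and without shGrhl3 replicate 1 (log2 fold change 0.61, adjusted p = 0.0283).

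The other light chains gave no call. Slc7a6, which encodes y+LAT2, had 93.6 and 95.5 CPM in shGrhl3 and 85.3 and 97.2 CPM in shNT, with overlap. Its log2 fold change of 0.05 had a 95% interval of -0.14 to 0.25. Slc7a11 encodes xCT, the exchanger that takes in cystine for glutathione synthesis, and is named here after its values were seen. It had 6.48 and 8.62 CPM in shGrhl3 and 8.47 and 11.2 CPM in shNT, a log2 fold change of -0.37 (95% interval -0.79 to 0.04, adjusted p = 0.160, edgeR). The groups overlapped, and the upper end of the interval lies far below the change of Slc7a5. Of 10 light chain genes, 2 thus rose, 0 fell, 3 did not pass and 5 were too low to test. The called share of the tested light chains was 40%, near the 35.3% of all genes tested.

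The cationic amino acid transporters need no heavy chain and carry arginine, lysine and ornithine. Slc7a3, which encodes CAT3, had 5.24 and 5.94 CPM in shGrhl3 and 2.72 and 3.84 CPM in shNT. Slc7a2, which encodes CAT2, had 7.68 and 11.2 CPM in shGrhl3 and 6.27 and 6.30 CPM in shNT. In both genes the shGrhl3 libraries lay above the shNT libraries, although those of Slc7a2 differed widely from each other. The log2 fold changes were 0.79 for Slc7a3 (SE 0.26, adjusted p = 0.0228, edgeR) and 0.58 for Slc7a2 (SE 0.21, adjusted p = 0.0351, edgeR).

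Both cationic carrier calls were fragile. DESeq2 ended that of Slc7a3 (adjusted p = 0.0826), as did leaving out shGrhl3 replicate 2 (log2 fold change 0.71, adjusted p = 0.0843) or shNT replicate 1 (0.54, adjusted p = 0.260). DESeq2 (adjusted p = 0.0999) and limma-voom (0.0540) ended that of Slc7a2, and so did leaving out shGrhl3 replicate 2 (log2 fold change 0.31, adjusted p = 0.391), shNT replicate 1 (0.58, adjusted p = 0.102) or shNT replicate 2 (0.59, adjusted p = 0.0764). The gene span of Slc7a3 overlaps that of Snx12, which had 1841 and 1642 counts in shGrhl3 and 2058 and 1663 in shNT and was called lower. Slc7a1, which encodes the general arginine carrier CAT1, had 113 and 124 CPM in shGrhl3 and 104 and 103 CPM in shNT. The groups were apart, but its log2 fold change of 0.19 did not pass (95% interval 0.01 to 0.38, adjusted p = 0.0952, edgeR), and it passed without shGrhl3 replicate 1 (0.26, adjusted p = 0.0357). Slc7a4, a relative with no established substrate, had a log2 fold change of -0.02 (adjusted p = 0.952) whose sign turned with library-size scaling, with limma-voom, without shGrhl3 replicate 2 and without shNT replicate 2. It is given, with the other tested members outside the naming rule, to complete its family.

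**Figure D2:**
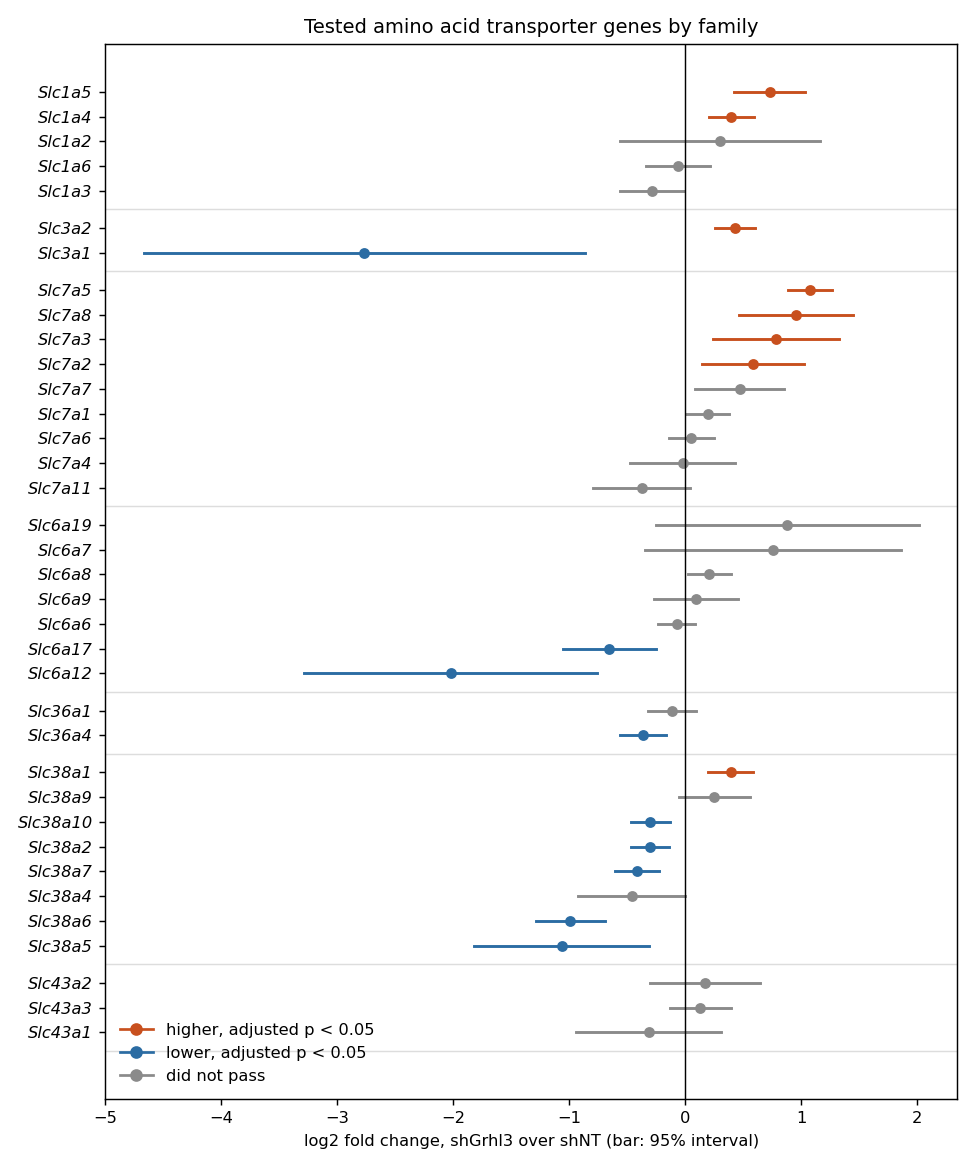
Log2 fold change, shGrhl3 over shNT, with its 95% interval for the 36 tested transporter genes, grouped by family and coloured by call. The Slc7a genes that passed lie to the right of 0, while 5 of the 6 called Slc38a genes lie to the left, and the intervals of Slc3a1 and Slc6a12 are the widest among called genes.

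Both small neutral amino acid exchangers of the Slc1a family rose, where 17.2% of all genes tested were called higher. Slc1a5 (chromosome 7, 16781334 to 16798274) encodes ASCT2, a main entry route for glutamine. It averaged 19.2 ± 1.12 CPM in shGrhl3 and 11.6 ± 0.336 CPM in shNT (SD, n = 2 each), from 401 and 344 counts in shGrhl3 and 226 and 180 in shNT, without overlap. The gene rose by 0.73 on the log2 scale (SE 0.15, adjusted p = 0.000419, edgeR). Slc1a4 (chromosome 11, 20302180 to 20332713) encodes ASCT1, which carries alanine, serine, cysteine and threonine. It had 75.1 and 76.0 CPM in shGrhl3 and 56.6 and 57.9 CPM in shNT, so the libraries of each group were nearly equal and the groups were apart. The rise was 0.40 on the log2 scale (SE 0.10, adjusted p = 0.00198, edgeR).

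The glutamate and aspartate carriers of the same family, best known for clearing glutamate around neurons, gave no call among 3 tested of 5. The called share over all genes tested was 35.3%. Slc1a3, the glial carrier GLAST, had 16.6 and 17.6 CPM in shGrhl3 and 20.5 and 21.3 CPM in shNT (log2 fold change -0.29, adjusted p = 0.0972, edgeR), with the groups apart. Slc1a6 had 19.4 and 21.5 CPM in shGrhl3 and 19.9 and 23.0 CPM in shNT, a log2 fold change of -0.06 that was 0.041 at its highest with a library left out. Slc1a2 was low, with 27 and 44 counts in shGrhl3 and 24 and 28 in shNT, and its log2 fold change of 0.30 turned to -0.12 without shGrhl3 replicate 2. These 3 genes are given as the remaining tested members of their family, outside the rule for named genes.

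In the Slc38a family of sodium-coupled neutral carriers 1 of 8 tested genes was higher, 5 were lower and 2 did not pass, beside 17.2% of all genes called higher and 18.1% called lower. Without shNT replicate 2 the lower calls of the family numbered 2, and without shNT replicate 1 the higher calls numbered 2. The median log2 fold change of the 8 was -0.36. The family's summed level was 925 and 986 CPM in shGrhl3 and 1114 and 1127 CPM in shNT, most of it from Slc38a2. For comparison, the summed Slc7a level was 410 and 444 CPM in shGrhl3 and 307 and 315 CPM in shNT.

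The genes Slc38a1 and Slc38a2, which lie 43954 bases apart on chromosome 15 and encode the glutamine and alanine carriers SNAT1 and SNAT2, moved in opposite directions. Slc38a1 (96571418 to 96643438) had 122 and 143 CPM in shGrhl3 and 105 and 96.8 CPM in shNT. This gave a log2 fold change of 0.39 (95% interval 0.20 to 0.59, adjusted p = 0.00226, edgeR). Slc38a2 (96687392 to 96699728), a gene known to be induced when cells lack amino acids, had 519 and 553 CPM in shGrhl3 and 651 and 670 CPM in shNT. This gave a log2 fold change of -0.30 (95% interval -0.46 to -0.14, adjusted p = 0.00417, edgeR). The libraries of the 2 groups did not overlap for either gene, and the intervals lie on opposite sides of 0. The call of Slc38a2 was lost without shNT replicate 2 (log2 fold change -0.28, adjusted p = 0.0936). Slc38a4, a liver-type member of the same system that lies 295088 bases from Slc38a2, had 4.89 and 4.71 CPM in shGrhl3 and 6.32 and 6.93 CPM in shNT, and its log2 fold change of -0.46 did not pass (adjusted p = 0.115).

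Slc38a6 (chromosome 12, 73286739 to 73361998), a less well characterised member, showed the clearest fall. It had 11.9 and 11.6 CPM in shGrhl3 and 21.7 and 25.3 CPM in shNT, about 0.503 of the control level. The fall was -0.99 on the log2 scale (95% interval -1.29 to -0.69, adjusted p = 8.16e-06, edgeR). The groups were well apart, and the call was kept in all 13 alternatives tried. Its gene span overlaps that of Trmt5, a tRNA methyltransferase gene that did not pass (227 and 238 counts in shGrhl3, 210 and 187 in shNT).

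Slc38a7 (chromosome 8, 95835920 to 95853577) encodes SNAT7, which exports glutamine from lysosomes. It had 62.1 CPM in both shGrhl3 libraries and 81.5 and 84.3 CPM in shNT, a log2 fold change of -0.41 (SE 0.09, adjusted p = 0.00127, edgeR) that was kept in all 13 alternatives. Slc38a9 encodes the lysosomal carrier that senses arginine for mTORC1 and had 26.6 and 27.5 CPM in shGrhl3 and 26.8 and 18.3 CPM in shNT. It did not pass (log2 fold change 0.25, adjusted p = 0.194, edgeR), and the low second shNT library decided its value: without shNT replicate 1 the log2 fold change was 0.56 (adjusted p = 0.00923) and without shNT replicate 2 it was 0.02.

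Slc38a10, a poorly characterised member, had 177 and 182 CPM in shGrhl3 and 219 and 223 CPM in shNT. Its log2 fold change of -0.30 passed (SE 0.08, adjusted p = 0.00632, edgeR), but not without shNT replicate 1 (-0.31, adjusted p = 0.0569) or shNT replicate 2 (-0.29, adjusted p = 0.0850). Slc38a5, which encodes the system N glutamine carrier SNAT5, was low, with 33 and 22 counts in shGrhl3 and 49 and 55 in shNT. The log2 fold change of -1.06 passed (SE 0.37, adjusted p = 0.0264, edgeR). This call was lost with DESeq2 (adjusted p = 0.0858), without shGrhl3 replicate 2 (log2 fold change -0.83, adjusted p = 0.146) and without shNT replicate 2 (-0.85, adjusted p = 0.190), and the gene was not tested with a minimum count of 50.

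The proton-coupled Slc36a carriers had 1 of 2 tested genes lower, beside 18.1% of all genes tested. Slc36a4 (chromosome 9, 15709738 to 15742388), which encodes the proline and tryptophan carrier PAT4, had 57.0 and 60.4 CPM in shGrhl3 and 73.8 and 76.9 CPM in shNT. The groups were apart, with a log2 fold change of -0.36 (SE 0.10, adjusted p = 0.00497, edgeR), which was lost without shNT replicate 2 (-0.33, adjusted p = 0.0640). Slc36a1, the lysosomal carrier PAT1, had 59.1 and 66.1 CPM in shGrhl3 and 66.1 and 69.3 CPM in shNT (log2 fold change -0.11, 95% interval -0.32 to 0.09).

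Of the 7 tested genes of the Slc6a family 28.6% were called, where the share over all genes tested was 35.3%. The family, which includes the carriers of neurotransmitters, taurine and creatine, had 2 of 7 tested genes lower and 0 higher. Its most counted member was Slc6a6, the taurine carrier of heart and other tissues, with 631 and 666 CPM in shGrhl3 and 689 and 676 CPM in shNT. Its log2 fold change of -0.07 had an interval of -0.23 to 0.09 and did not pass (adjusted p = 0.499, edgeR). Slc6a8, the creatine carrier of muscle, had 119 and 109 CPM in shGrhl3 and 98.0 and 99.3 CPM in shNT. The groups were apart, but the log2 fold change of 0.21 did not pass (95% interval 0.02 to 0.39, adjusted p = 0.0772, edgeR). It passed with library-size scaling (adjusted p = 0.0484) and without shGrhl3 replicate 2 (log2 fold change 0.29, adjusted p = 0.0171).

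The Slc6a genes that fell had low counts. Slc6a17, which encodes a neutral amino acid carrier of synaptic vesicles, had 129 and 123 counts in shGrhl3 and 176 and 181 in shNT, which is 6.43 and 6.58 CPM against 9.20 and 11.4 CPM. It fell with a log2 fold change of -0.65 (SE 0.19, adjusted p = 0.0108, edgeR). Slc6a12, the betaine and GABA carrier BGT1 that responds to osmotic stress, had 8 and 6 counts in shGrhl3 and 19 and 33 in shNT. The fitted log2 fold change was -2.02 (95% interval -3.29 to -0.76, adjusted p = 0.0123, edgeR). Slc6a12 was not tested with a minimum count of 50. Without shNT replicate 2 both calls were lost, with log2 fold changes of -0.50 for Slc6a17 (adjusted p = 0.141) and -1.44 for Slc6a12 (adjusted p = 0.199). Slc6a19, the neutral carrier of kidney and gut, and Slc6a7, the proline carrier of brain, had at most 27 counts in a library. Their log2 fold changes of 0.88 and 0.76 had intervals that reached below 0 (adjusted p = 0.227 and 0.292, edgeR). Slc6a9, the glycine carrier GlyT1, had 220 and 230 counts in shGrhl3 and 182 and 198 in shNT (log2 fold change 0.09, but -0.10 without shNT replicate 1).

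None of the 3 Slc43a genes passed, where 35.3% of all genes tested were called. Slc43a1 and Slc43a2 encode the facilitative leucine carriers LAT3 and LAT4, and Slc43a3 a carrier of purine bases. Their log2 fold changes were -0.31, 0.18 and 0.13, with adjusted p of 0.455, 0.596 and 0.466 in edgeR. The value of Slc43a1 was 0.06 without shNT replicate 2, and that of Slc43a2 was about 0 without shGrhl3 replicate 2. With 55 to 75 counts per library for Slc43a1, its interval of -0.94 to 0.31 leaves room for a fall of the size seen in Slc38a7.

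The remaining 25 members were too low to test, 7 of them at 0 in every library. A total of 0 counts in a library allows a level of up to 0.150 to 0.189 CPM, taking 3 counts as the limit and covering counting error only. The highest were Slc6a18 (5 and 4 counts in shGrhl3, 1 and 9 in shNT), Slc6a4 (6 and 7 in shGrhl3, 1 and 4 in shNT), Slc6a15 (4 and 0 in shGrhl3, 4 and 9 in shNT) and Slc1a1 (4 and 2 in shGrhl3, 5 and 6 in shNT). Slc1a7 had 2 and 3 counts in shGrhl3 and 4 and 3 in shNT, and Slc6a14 had 3 and 0 in shGrhl3 and 5 and 1 in shNT. They are carriers known from neurons, retina, kidney or gut, and no untested member had more than 9 counts in a library. The monoamine carriers Slc6a2, Slc6a3 and Slc6a4 were all in this group.

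**Figure D3:**
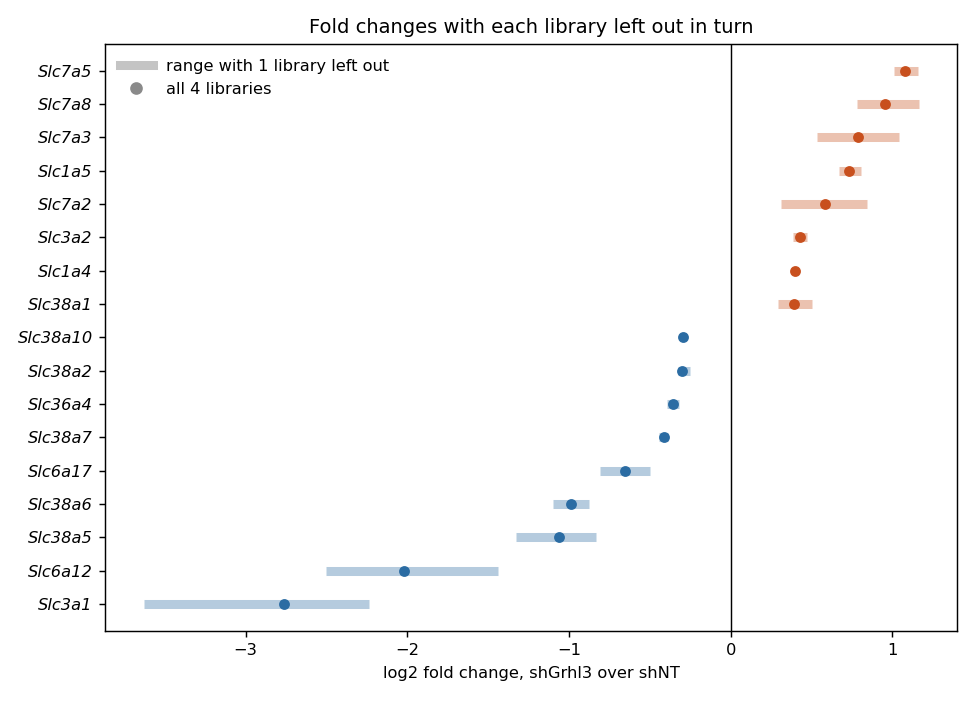
Log2 fold change, shGrhl3 over shNT, of the 17 called genes with all 4 libraries (points) and its range with each library left out in turn (bars), in orange for genes higher in shGrhl3 and blue for lower. No bar crosses 0, though Slc3a1 could be tested in 3 of the 4 cases, and those of Slc3a1 and Slc6a12, the genes with the fewest counts, are the longest.

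Other genes of amino acid biology were read from lists, to set the transporters beside the enzymes and sensors that use their cargo. Cytosolic aminoacyl-tRNA synthetases load amino acids onto tRNAs and include many ATF4 targets. Of their 20 genes, 14 rose, 1 fell and 5 did not pass, with a median log2 fold change of 0.38. Over all genes tested, 17.2% were called higher and 18.1% lower. Sars had 423 and 386 CPM in shGrhl3 and 215 and 234 CPM in shNT. Wars had 112 and 111 CPM in shGrhl3 and 63.7 and 57.8 CPM in shNT, and Aars 346 and 368 CPM in shGrhl3 and 228 and 222 CPM in shNT. Farsa was the member that fell (log2 fold change -0.32, adjusted p = 0.0259, edgeR), a call lost with DESeq2 (adjusted p = 0.0734), without shGrhl3 replicate 1 (-0.30, adjusted p = 0.0715) and without shNT replicate 2 (-0.24, adjusted p = 0.258).

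Of all genes tested 35.3% were called, and 53.6% of 28 genes listed for the amino acid response through ATF4. The list takes in the kinase genes Eif2ak1, Eif2ak2, Eif2ak3 and Eif2ak4, without regard to the stress that activates each. In this list 13 genes rose, 2 fell and 13 did not pass, with a median log2 fold change of 0.24. Without shNT replicate 1 the genes that rose numbered 8, and the genes that fell numbered 1 to 4 over the libraries left out. Nupr1, a stress-induced chromatin-binding protein gene, stood at 340.3 ± 4.41 CPM in shGrhl3 and 129 ± 3.22 CPM in shNT (SD, n = 2 each). Chac1, which degrades glutathione, had 35.9 and 36.8 CPM in shGrhl3 and 10.2 and 10.4 CPM in shNT, and Trib3, an ATF4 feedback inhibitor, 34.6 and 35.3 CPM in shGrhl3 and 7.99 and 4.66 CPM in shNT. Asns, the asparagine synthetase gene and a standard ATF4 target, went the other way, with 35.2 and 33.5 CPM in shGrhl3 and 98.3 and 87.8 CPM in shNT (log2 fold change -1.44, SE 0.10, adjusted p = 1.73e-10, edgeR). The other gene that fell was the kinase gene Eif2ak1 (log2 fold change -0.30, adjusted p = 0.0253), whose call was lost with DESeq2 (adjusted p = 0.0660), without shGrhl3 replicate 2 (-0.18, adjusted p = 0.234) and without shNT replicate 2 (-0.24, adjusted p = 0.204). Asns and Slc38a2 are thus target genes that fell while Slc7a5, Trib3 and Chac1 rose in the same libraries. The fall of Slc38a2 was the smaller (log2 fold change -0.30), and its call was lost without shNT replicate 2.

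**Figure D4:**
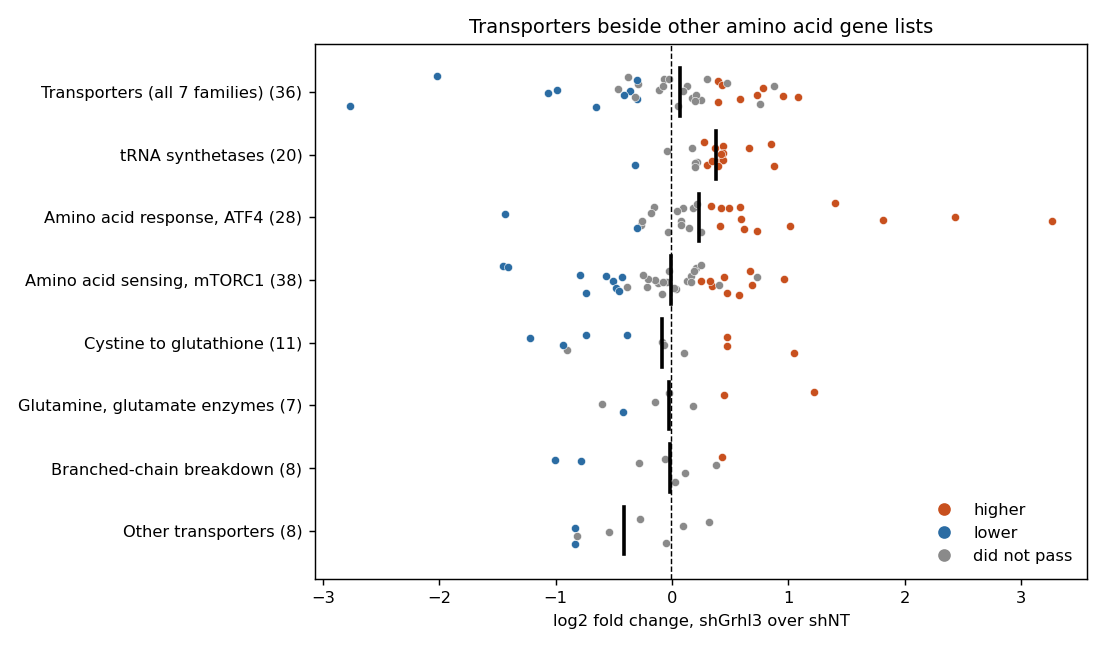
Log2 fold change, shGrhl3 over shNT, of each tested gene of the transporter families and 7 other amino acid lists (number tested in brackets), with a bar at each list's median and a dashed line at the median of all tested genes. The transporters spread to both sides around a median of 0.07. The synthetase list has a median of 0.38 with 14 of 20 genes called higher, beside 17.2% of all genes tested.

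Of 38 genes listed for amino acid sensing by mTORC1, 9 rose, 9 fell and 20 did not pass. The list takes in parts of mTORC1 and its regulators, such as Mtor, Tsc2 and Rheb, beside the sensors. Fewer genes of the list were called lower without shNT replicate 2. The called share of this list was 47.4%, and that of all genes tested was 35.3%. Sesn2, an inhibitory leucine sensor and ATF4 target, rose (log2 fold change 0.97, SE 0.09, adjusted p = 2.47e-08, edgeR), as did Akt1s1 (0.58) and Sec13 (0.45). Its relative Sesn3 fell, with 24.1 and 30.2 CPM in shGrhl3 and 73.8 and 70.8 CPM in shNT. Seh1l (-0.79), a part of the complex that the sestrins bind, and Rragd (-0.74), a Rag GTPase that recruits mTORC1 to lysosomes, also fell.

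Enzymes that use the carried amino acids were read against the 35.3% of all genes called. Of 11 tested genes from cystine to glutathione, 3 rose and 4 fell: Cth, which makes cysteine (log2 fold change 1.05), Gss (0.48) and Keap1 (0.47) were higher, and the lowest p-values among those that fell were those of Gpx4 (-0.93), Ggt7 (-0.74) and Ggt5 (-1.22). Without shNT replicate 1 the calls of Gss (0.36, adjusted p = 0.0938) and Keap1 (0.28, adjusted p = 0.150) were lost. Of 7 glutamine and glutamate enzymes, 2 rose and 1 fell, a called share of 42.9%, and of 8 genes of branched-chain amino acid breakdown 1 rose and 2 fell, a share of 37.5%, both near that of all genes. Got1, an aspartate transaminase, had 136 and 142 CPM in shGrhl3 and 59.4 and 59.6 CPM in shNT, Got2 had a log2 fold change of 0.44, and Glul, the glutamine synthetase, one of -0.42. In the branched-chain list Dld rose (log2 fold change 0.43) and Ppm1k fell (-0.78), as did Dbt, at 16.1 CPM on average in shGrhl3 and 32.3 CPM in shNT.

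Of all genes tested 35.3% were called, and 25% of 8 tested amino acid and peptide carriers outside the 7 families. Of these 8 carriers, 0 rose and 2 fell. They were Slc15a3, a lysosomal histidine and peptide carrier known from macrophages (4.54 ± 1.05 CPM in shGrhl3 and 8.12 ± 0.790 CPM in shNT, SD, n = 2 each), and Slc16a10, the aromatic amino acid carrier TAT1 (3.42 ± 0.376 CPM in shGrhl3 and 6.20 ± 1.74 CPM in shNT, SD, n = 2 each). Slc15a3 lost its call without shGrhl3 replicate 2 (log2 fold change -0.60, adjusted p = 0.0738) and without shNT replicate 1 (-0.73, adjusted p = 0.0549). Slc16a10 lost it with DESeq2 (adjusted p = 0.0532), without shGrhl3 replicate 2 (-0.71, adjusted p = 0.0709) and without shNT replicate 2 (-0.53, adjusted p = 0.252). The leukocyte markers given above were lower in the same libraries, and their part in these results was not tested. Among 5 tested regulators of carriers 1 rose and 2 fell, a called share of 60% where that of all genes tested was 35.3%. Arl6ip5, which binds the glutamate carrier of Slc1a1, rose (log2 fold change 0.61). Cd44, known to stabilise the Slc7a11 protein (-0.26), and the ubiquitin ligase gene Nedd4l (-0.27) fell. Neither fall was called without shNT replicate 1 (adjusted p = 0.164 for Cd44 and 0.0558 for Nedd4l) or without shNT replicate 2 (0.0947 for Cd44 and 0.365 for Nedd4l). Cd44 was also lost without shGrhl3 replicate 2 (0.0555). Nedd4l was also lost without shGrhl3 replicate 1 (0.123), with library-size scaling (0.0625), no filter (0.0686), DESeq2 (0.0965) and the replicate block (0.0686).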

How the data were processed

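The authors deposited a gene table of unnormalized whole-number counts for the RNA-seq libraries. In its column names shGrhl1 and shGrhl2 the last digit was taken as the replicate, because no label names a hairpin target other than Grhl3. HISAT2 2.0.1, cutadapt 1.9.1 and Bowtie2 2.2.6 appear, with mm10, per the submitters' processing notes, without their roles. How genes were counted, on which annotation and with what strand setting was not given in the sources used here, so reads of overlapping genes and paralogs may be split or merged. CUT&Tag libraries for H3K27ac were left aside and not analysed here.

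The 1438 rows that name no gene (0.00432% to 0.00872% of a library's counts) were left out. Counts were tested with edgeR 4.0.16 in R 4.3.3: filterByExpr at a minimum count of 10, TMM scaling, a robust quasi-likelihood fit of shGrhl3 against shNT with no covariate, two-sided, and Benjamini-Hochberg adjustment over 15324 genes at 0.05. The steps were also run on simulated counts in which a small share of well-counted genes changed by large fixed amounts. That run does not cover genes with few counts, small changes or data in which many genes change. SEs and 95% intervals come from the quasi-likelihood F statistic. A count of 10 equals 0.499 to 0.630 CPM. CPM is not corrected for gene length, so levels are compared between groups and not between genes. Per degree of freedom, chi-square over genes was 8.66 within shGrhl3 and 14.1 within shNT, and 52.4 to 67.1 between groups, so no library repeated another.

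Named are every called member, the 6 uncalled members with the highest mean CPM, the 4 with the largest fold change, the 6 highest untested ones, and up to 3 genes per direction of each other list. Members and lists were chosen with earlier results of these data known. Positions are RefSeq gene spans on GRCm38.p6. Alternatives were library-size scaling, DESeq2 size factors, no filter, a minimum count of 50, DESeq2 1.42.0, limma-voom (limma 3.58.1), rows of one symbol summed, a replicate block, each library left out and, added after the data were seen, ribosomal RNA rows left out. All were also run for the other lists, a step likewise added after the data were seen.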

Additional observations from a re-analysis of the deposited data

How the results depend on the processing

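Called transporters numbered 13 to 19 in the alternatives other than the one without shNT replicate 2, against 17 with all 4 libraries; the 15 called with a minimum count of 50 included 14 of the 17. Leaving out a library gave 10 to 19 called transporters, 7 to 10 of them higher and 3 to 9 lower; the lowest counts, 10 called and 3 lower, were those without shNT replicate 2, while 19 and 9 were found without shGrhl3 replicate 1; the cause was not tested. Over all genes, 3835 to 5190 were called with a library left out and 4234 (DESeq2) to 5491 in the other alternatives. Fits with a library left out assume that the lone sample of a group varies like the others. The calls of Slc7a5, Slc38a6, Slc3a2, Slc1a5, Slc38a7, Slc1a4, Slc38a1 and Slc7a8 were kept in all 13 alternatives. Of the members named by rule, Slc7a6, which had not passed, changed sign without shNT replicate 1 (log2 fold change -0.043, with a range of -0.043 to 0.15 over libraries left out); the cause was not tested. Slc1a2, Slc1a6, Slc6a9, Slc7a4, Slc43a1 and Slc43a2, none of them called, also changed sign in at least 1 alternative. The replicate number as a block gave 17 called transporters and 5042 genes over all; deviations of same-numbered libraries correlated at -0.0605, so the numbers were not taken to pair the libraries. Depth limits the 25 untested genes and Slc3a1, Slc6a12, Slc38a5, Slc6a19, Slc6a7 and Slc1a2 most, for which under 60 counts per library were read.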

Other observations

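Rows beside the members were also read. Slc7a6os, a row with a symbol close to that of Slc7a6, had 649 and 512 counts in shGrhl3 and 516 and 446 in shNT and did not pass (log2 fold change 0.12). Slc6a20b had 3 and 1 counts in shGrhl3 and 5 and 5 in shNT, and Slc6a20a was at 0 in every library. Oxa1l, whose span overlaps that of Slc7a7, had 784 and 695 counts in shGrhl3 and 689 and 602 in shNT and did not pass (log2 fold change 0.05).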
